A study of Gallus gallus with 6 samples.

Results

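The histidine triad nucleotide-binding (HINT) genes HINTW, HINT1, HINT2 and HINT3 were followed by every array feature (probe set, a group of short probes read together) whose only gene symbol in the platform annotation is one of these 4. The rule found 4 of the 37693 chicken probe sets: 2 for HINTW, 1 for HINT2 and 1 for HINT3. No probe set carries the symbol HINT1, so 3 of the 4 genes have values. The samples were brains of female and of male chick embryos (Gallus gallus) at stage 29, which is 6 to 6.5 days of incubation by the labels, and embryos of 1 genetic sex were pooled. There were 3 female and 3 male pools of 5 to 8 embryos each, with 1 array per pool. The labels name no strain, treatment or mutation for either sex. Because embryos were pooled, the spread between arrays is the spread between pool averages, and the labels do not say which part of the brain was taken.

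HINT proteins are small enzymes that form dimers, bind nucleotides in a pocket lined by a histidine triad motif and cut phosphoramidate bonds. In birds the female carries a Z and a W chromosome and the male a pair of Zs. HINTW is a W-linked relative that arose from a Z-linked HINT gene, lies on the chicken W in many copies and lacks the histidine triad, and it has been discussed as a candidate for a role in female development. The Z gene from which it is derived is known in the chicken as HINTZ, HINT1Z or PKCIZ, the last name after a protein first described as an inhibitor of protein kinase C.

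The symbols of the Z-linked genes need care. In the RefSeq annotation of the assembly GRCg7b, the gene with the symbol HINT2 lists the synonyms CHPKCI, HINT1Z, HINTZ and PKCIZ and lies next to LYRM7, with CDC42SE2 near by, which are the neighbours of human HINT1. The gene with the symbol HINT1 lies elsewhere on the Z between TAF1C and SPAG8, near NPR2 and TMEM8B, and SPAG8, NPR2 and TMEM8B are neighbours of human HINT2. The probe set called HINT2 here is therefore that of the gene listed as HINTZ, the Z relative of HINTW, and the human HINT2 role in mitochondria cannot be assumed for it. HINT3, a more distant relative of the family, lies on chromosome 3 beside TRMT11 and NCOA7. HINTW lies on the W next to LOC100857579, whose synonym is HINTWL2, and whether its probe sets also read this or other copies was not tested.

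Pearson's r over all chicken probe sets was 0.991 to 0.995 between pools of the same sex and 0.988 to 0.992 between the sexes. All 10 neuron markers and all 9 neural progenitor markers were on the array, with 9 and 9 of them above the 95th percentile of viral probe sets (4.21 log2 units), which serves here as a picture of background. Among them were STMN2, a microtubule regulator of neurons, at 12.68 in female and 12.66 in male pools, and VIM, a progenitor filament, at 12.68 in female and 12.58 in male pools. Above the same percentile were also all 5 red blood cell markers on the array, all 5 of endothelium, 4 of 6 of muscle, 2 of 5 of pigment and eye, and 1 of 4 of myeloid cells. The median of all chicken probe sets was 4.91, so a place above this percentile is common. Above that median were 9 neuron, 9 progenitor, 5 red blood cell, 3 endothelium, 1 muscle, 2 pigment and eye, and 1 myeloid marker. The 2 of pigment and eye were PMEL and OTX2, at mean signals of 5.48 and 10.28.

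Of the 4 HINT probe sets 3 had a sex difference with a limma adjusted p below 0.05 (Benjamini-Hochberg over all chicken probe sets), against 0.554% of all 37693. Both HINTW probe sets were higher in female pools, HINT2 was lower in female pools, and HINT3 gave means within 0.02 log2 units of each other. In each of these 3 probe sets the female and male pools did not overlap, which held for 16.2% of all chicken probe sets. A call higher in females was made for 0.111% of all probe sets and 35.9% of W-linked ones. A call lower in females was made for 0.443% of all probe sets and 11.5% of Z-linked ones.

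The brighter HINTW probe set had signals of 13.31, 13.09 and 13.19 log2 units in female pools 1 to 3, and 5.96, 5.16 and 4.63 in male pools 1 to 3. Every female pool lay at least 7.12 log2 units above every male pool, and the male pools were spread over 1.34 units while the female pools were spread over 0.22. The means were 13.20 ± 0.11 in female and 5.25 ± 0.67 in male pools (SD, n = 3 each). The female minus male difference was 7.95 (SE 0.29, 95% interval 7.26 to 8.63, limma adjusted p = 4.11e-05), a 247-fold higher signal in females. It was the largest difference in either direction among the 37693 probe sets.

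The dimmer HINTW probe set had signals of 6.86, 6.75 and 6.88 in female pools 1 to 3, and 5.00, 4.32 and 4.50 in male pools 1 to 3. The sexes were again fully apart, with a gap of 1.75 log2 units between the lowest female and the highest male pool. The means were 6.83 ± 0.07 in female and 4.61 ± 0.35 in male pools (SD, n = 3 each), a difference of 2.22 (SE 0.16, 95% interval 1.84 to 2.60, limma adjusted p = 0.00210) or 4.67-fold. This is rank 20 in size among all probe sets.

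The 2 HINTW probe sets shared the direction but not the size of the difference. The name of the brighter one ends in _a_at, which the manufacturer gives to probe sets that match several transcripts of 1 gene. The sex difference of the brighter probe set exceeded that of the dimmer one by 5.72 log2 units. Centred on its mean over the pools, the gap between the probe sets was 2.81 to 2.94 units in the female pools and -3.38 to -2.54 in the male pools. A two-sided exact permutation test of this gap had p = 0.1, the lowest value the 6 pools can give. This test was chosen after the values were seen. The female means were 13.20 and 6.83, while the male means lay only 1.04 and 0.39 units over the viral 95th percentile. The female mean of the dimmer probe set was 2.62 units over that percentile, so background limits the difference it can give. The contrast therefore does not show that the 2 probe sets disagree on the ratio between the sexes.

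**Figure D1:**
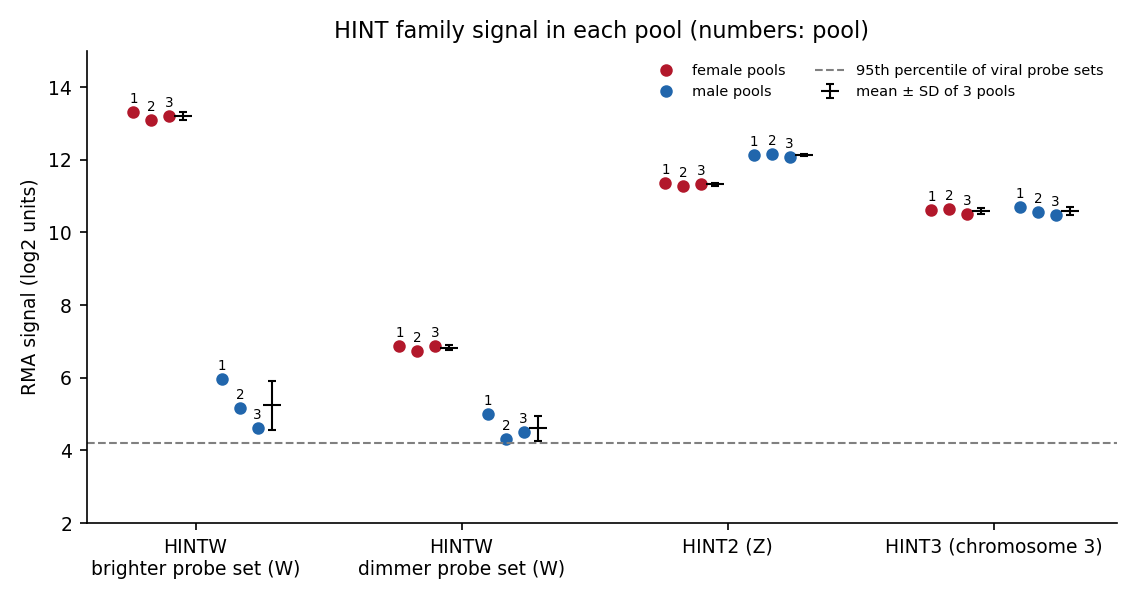
RMA signal in log2 units (y axis) of the 4 HINT probe sets (x axis) in each female pool (red) and male pool (blue), numbered by pool, with mean ± SD of 3 pools in black and the 95th percentile of viral probe sets as a dashed line. HINTW sits at 13.09 to 13.31 in female pools by its brighter probe set and at 4.63 to 5.96 in male pools, HINT2 is lower in every female pool, and the HINT3 pools overlap.

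Males have no W chromosome, so the HINTW signal of correctly sexed males shows what these probe sets read without a W copy. All 3 male pools lay above 4.21, the 95th percentile of viral probe sets, in both HINTW probe sets, with male means 1.04 and 0.39 units over it. A place above this percentile is common, as the median of all chicken probe sets was 4.91. The male mean of the brighter HINTW probe set, 5.25, lay above that median and that of the dimmer one, 4.61, below it. On the linear scale the brighter probe set stood at 0.665%, 0.381% and 0.263% of the female mean in male pools 1, 2 and 3. The dimmer one stood at 28.1%, 17.5% and 19.9% in the same order, with a female mean of 6.83 log2 units in place of 13.20. Since the signal was background-corrected and summarised on a log scale, these shares describe the values and do not measure RNA amounts.

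Male pool 1 was the highest male pool in both HINTW probe sets, by 1.07 and 0.59 log2 units over the mean of male pools 2 and 3. Among the 12962 chicken probe sets with a male mean between 4 and 6, a lead of male pool 1 at least as large was found in 0.123% and 0.633%. Because male pool 1 was picked from these HINTW values, the 2 shares only describe its lead and are no test of it. The other 12 W-linked probe sets that passed, from 8 genes, all had smaller leads, the largest of them close to that of the dimmer HINTW probe set. Most of the 12 had a male mean below 4, outside that range of signal, so the leads are not compared at a like level. Male pool 1 was the highest male pool in 8 of the 12, against 32.4% of all chicken probe sets, with leads of -0.49 to 0.55 units and a median of 0.14. HNRNPKL, named for an RNA-binding protein, had the largest of these leads at 0.55, in a probe set with male signals of 3.08, 2.57 and 2.49. LOC430910, an uncharacterised W gene with male signals of 3.96, 4.74 and 4.00, was highest in male pool 2 instead. Without male pool 1 the HINTW differences were 8.30 and 2.42.

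Male HINTW means lay above the viral 95th percentile, unlike those of most other W-linked probe sets that passed. Of the 14 W-linked probe sets that passed, 10 had a male mean below the viral 95th percentile, and the 4 above it were both of HINTW, 1 of LOC430910 and 1 of UBAP2L2, named for a ubiquitin-associated protein. The 12 other probe sets were higher in females by 1.39 to 5.86 log2 units. A call higher in females favours probe sets with a low male signal, so this comparison does not cover the W as a whole. Among W-linked probe sets that did not pass, some had higher male means than HINTW, such as MBD2 at 9.16 and every probe set of NEDD4L, at 5.85 to 8.89. The NEDD4L probe sets were all lower in the female means, with differences of -0.39 to -0.55 log2 units. What the MBD2 and NEDD4L probe sets read in males was not tested. Others lay below the percentile. Where the male signal lies at background, the size of a difference is limited by it.

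**Figure D2:**
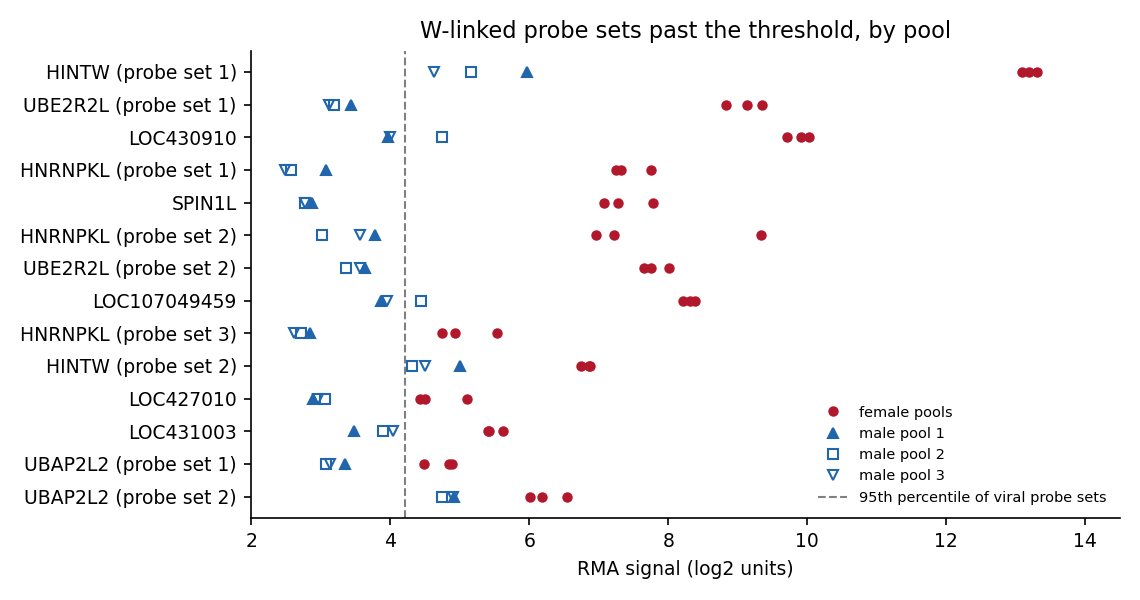
RMA signal in log2 units (x axis) of the 14 W-linked probe sets past the threshold (y axis, ordered by the size of the difference), with female pools as red points, male pools as blue symbols and the viral 95th percentile, 4.21, as a dashed line. Both HINTW probe sets have all male pools to the right of the line, with male pool 1 farthest right.

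By the smallest root mean square difference between deviations from the mean over the 6 pools, the patterns most like the brighter HINTW probe set were those of the W genes UBE2R2L (1.09 log2 units), LOC430910 (1.25) and HNRNPKL (1.63). UBE2R2L is named for a ubiquitin-conjugating enzyme. For the dimmer probe set they were HNRNPKL by another probe set (0.33), UBAP2L2 (0.36) and LOC427010 (0.41), an uncharacterised gene, which are W-linked as well. Since all of these genes were picked by likeness to the HINTW values, their differences and W linkage are no separate evidence. The nearest pattern to the brighter probe set was still over 1 log2 unit away, and no other W gene differed between the sexes by more than 5.86.

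HINT2, the gene listed as HINTZ, had signals of 11.35, 11.28 and 11.34 log2 units in female pools 1 to 3, and 12.14, 12.16 and 12.09 in male pools 1 to 3. Every female pool lay below every male pool, with a gap of 0.73 units, while the pools of a sex were spread over 0.08 units in females and 0.07 in males. The means were 11.32 ± 0.04 in female and 12.13 ± 0.04 in male pools (SD, n = 3 each). The female minus male difference was -0.80 (SE 0.07, 95% interval -0.96 to -0.65, limma adjusted p = 0.00287), so that the male signal was 1.75-fold the female one (95% interval 1.57 to 1.95). A full doubling, the ratio of Z copies between the sexes, would be 1 log2 unit and lies just outside this interval. Whether the HINT2 probe set also reads HINTW transcripts, which only females carry, was not tested. As for HINTW, the ratio describes the signal and does not measure RNA amounts. In bulk brain samples fewer cells of a type and less RNA per cell cannot be told apart.

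The HINT2 pools were close to each other for a gene of this brightness. Of 262 chicken probe sets within 0.5 log2 units of its mean signal, 12.2% had a smaller SD within the sexes. Because the fit draws each probe set's variance toward a common value, the SE of 0.07 is larger than these SDs alone would give.

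Among Z genes HINT2 stood toward the male end. Over the 377 Z genes whose brightest probe set reached the median signal of all chicken probe sets, the median female minus male difference was -0.36 log2 units, with quartiles of -0.74 and -0.09. A more negative difference than that of HINT2 was found in 75 of the 377, or 19.9%. The 3 genes with a pattern most like it over the 6 pools were all Z-linked: FAM172A (root mean square difference 0.04 log2 units), PIGG (0.04), a gene of glycosylphosphatidylinositol anchor synthesis, and TXNL1 (0.04), a thioredoxin-like protein. Their female minus male differences were -0.85 (SE 0.07), -0.74 (SE 0.07) and -0.82 (SE 0.07), with limma adjusted p of 0.00308, 0.00339 and 0.00318. Since these 3 genes were picked by likeness to the HINT2 values, their differences and Z linkage are no separate evidence.

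**Figure D3:**
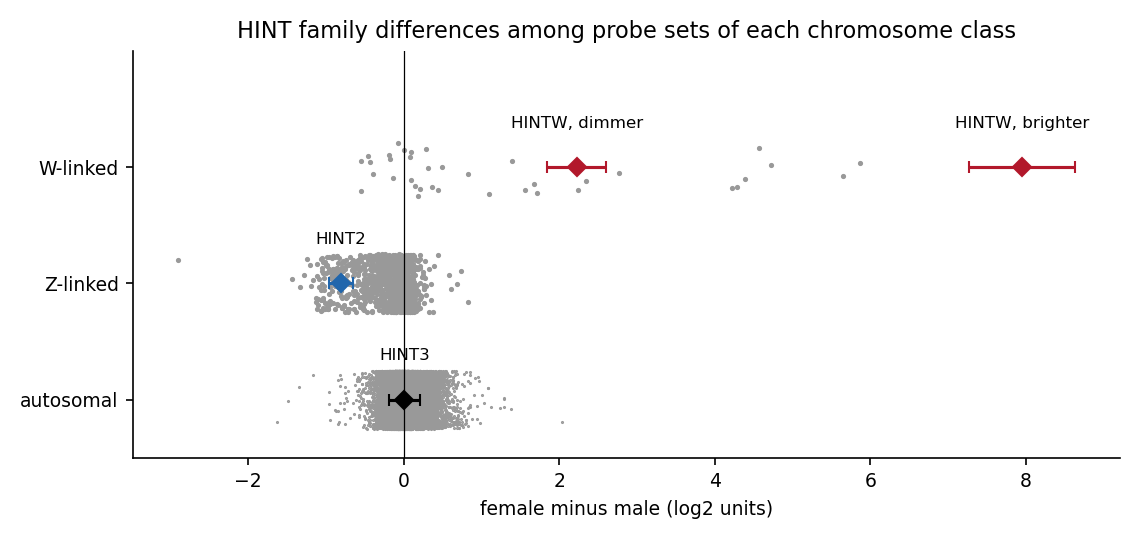
Female minus male difference in log2 units (x axis) of W-linked, Z-linked and autosomal probe sets (grey points, y axis), with the HINT probe sets as diamonds with 95% intervals. HINTW lies at 7.95 and 2.22 among W-linked probe sets, HINT2 at -0.80 within the range of Z-linked ones, and HINT3 at 0.01 in the middle of the autosomal ones.

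The neighbours of HINT2 on the Z did not all share its difference. Of the 20 measured genes nearest in order, 10 on each side, 14 were lower in the female means and 3 fell past the threshold, with a median of -0.30 log2 units. Over all 605 Z genes on the array 483 were lower in the female means, so the count of lower neighbours is not above that of the chromosome as a whole. Of Z-linked probe sets 11.5% fell past the threshold. That share includes dim probe sets, while each neighbour is counted by its brightest, so it is only a rough comparison. A more negative difference than that of HINT2 was found in 3 of the 20. LYRM7, the next gene on one side and an assembly factor of mitochondrial complex III, had signals of 6.53, 6.15 and 6.25 in female pools, and 7.42, 7.43 and 7.24 in male pools. Its groups did not overlap, as in 16.2% of all chicken probe sets. It fell by 1.05 log2 units in females (SE 0.11, limma adjusted p = 0.00806), but its dimmer probe set gave 0.59 (SE 0.20, limma adjusted p = 0.370). The probe sets of LYRM7 thus differ in sign, and only one of them passed.

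The gene beyond LYRM7 on the array, CDC42SE2, an effector of the small GTPase CDC42, gave -0.31 (SE 0.10, limma adjusted p = 0.323). GADD45G, a stress response gene farther along on the same side, was lower in females in both of its probe sets, by -0.99 (SE 0.07) and -1.11 (SE 0.09, limma adjusted p = 0.00168 and 0.00219). YTHDC2, an RNA helicase on the other side, passed in 1 of its 6 probe sets, at -0.80 (SE 0.12, limma adjusted p = 0.0350). CHSY3, the measured gene next to HINT2 on that side, gave -0.14 (SE 0.07) at a mean signal of 3.70, below the viral 95th percentile. Of the 20 neighbours 13 lay at or above that level.

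**Figure D4:**
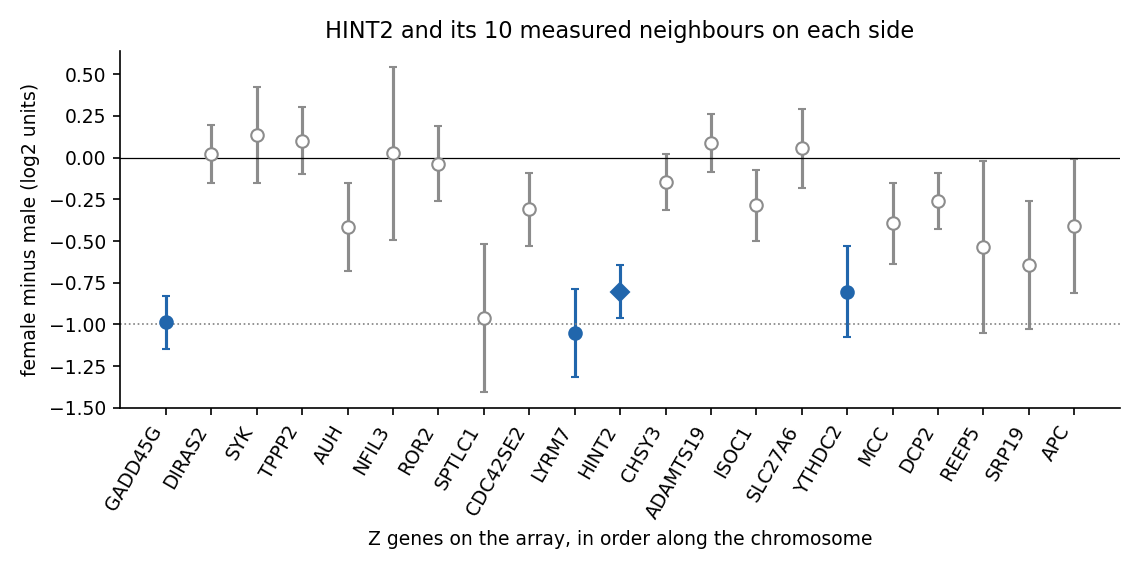
Female minus male difference in log2 units with 95% intervals (y axis) for HINT2 (diamond) and its 10 nearest measured genes on each side in order along the Z (x axis), each gene by its brightest probe set, filled where past the threshold, with a dotted line at a halving. HINT2 at -0.80 lies beside LYRM7 at -1.05, while CHSY3 on its other side is at -0.14.

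HINT3 served as the autosomal relative. Its signals were 10.63, 10.65 and 10.50 log2 units in female pools 1 to 3, and 10.69, 10.57 and 10.48 in male pools 1 to 3. The pools of the sexes overlapped, with the highest and the lowest value both in male pools. The means were 10.59 ± 0.08 in female and 10.58 ± 0.11 in male pools (SD, n = 3 each), a difference of 0.01 (SE 0.09, limma adjusted p = 0.979). The 95% interval ran from -0.19 to 0.21, so a change of up to 1.16-fold is not excluded by these pools. Over 25589 autosomal probe sets the median difference was -0.00 and 0.043% passed.

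The sex differences of HINT2 and HINT3 were set against each other within each pool. Centred on its mean over the 6 pools, HINT2 minus HINT3 was -0.41, -0.51 and -0.30 log2 units in female pools 1 to 3, and 0.31, 0.45 and 0.47 in male pools 1 to 3. Every female pool lay below every male pool, and the female minus male difference of this quantity was -0.82. By a two-sided exact permutation test p was 0.1, and no smaller p is possible with 3 pools a sex.

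HINT1, by its symbol, has no probe set among those with 1 gene symbol and is not analysed here. Of the measured genes around its place on the Z, RGP1, a part of a guanine nucleotide exchange complex of membrane traffic, was lower in females by -1.07 log2 units (SE 0.08, limma adjusted p = 0.00210). The bile acid glucosidase GBA2 beside it gave -0.27 (SE 0.08), and TMEM8B on the other side -0.00 (SE 0.07, limma adjusted p = 0.999). CD72L1, LOC100859284 and AVDL, also near by, gave 0.04 (SE 0.11), 0.03 (SE 0.08) and -0.06 (SE 0.10). Of the genes named here only RGP1 passed. These differences are the values of the neighbours and say nothing of HINT1.

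The other genes of the histidine triad superfamily were APTX, DCPS, FHIT and GALT, and of these 4 genes 1 fell in females and none rose. Their median difference was -0.25 log2 units, against -0.02 over all 13008 genes, of which 0.923% passed by the brightest probe set. APTX and GALT are Z-linked. The median over all 605 Z genes was -0.18, and 11.5% of all Z-linked probe sets passed as lower in females. APTX, the Z-linked aprataxin that removes adenylate from broken DNA ends, had signals of 7.04, 6.92 and 6.96 in female pools, and 7.83, 7.61 and 7.63 in male pools. Its groups did not overlap, as in 16.2% of all chicken probe sets, and it fell by 0.72 (SE 0.09, limma adjusted p = 0.0139). GALT, the Z-linked transferase of galactose breakdown, gave -0.36 (SE 0.08, limma adjusted p = 0.161). The autosomal members FHIT, a hydrolase of diadenosine polyphosphates, and DCPS, the scavenger enzyme of messenger RNA caps, gave -0.14 (SE 0.16) and 0.03 (SE 0.12).

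Of 14 symbols listed for reported partners of human HINT1, counting the other subunits of the CDK7 kinase, 10 genes were on the array. Of these, 2 fell and none rose in females, with a median of -0.08 log2 units. Of all genes 0.923% passed by the brightest probe set, and of all Z-linked probe sets 11.5% passed as lower in females. The 2 that fell are both Z-linked and both belong to the kinase that activates cyclin-dependent kinases and is part of the transcription factor TFIIH. CCNH, its cyclin H, had signals of 8.63, 8.40 and 8.57 in female pools, and 9.41, 9.56 and 9.55 in male pools, a difference of -0.97 (SE 0.09, limma adjusted p = 0.00359), and -0.65 (SE 0.12) in its dimmer probe set, which did not pass (limma adjusted p = 0.0971). CDK7, the catalytic subunit, had 7.28, 6.93 and 7.13 in female pools, and 8.06, 7.97 and 8.03 in male pools, a difference of -0.91 (SE 0.10, limma adjusted p = 0.00807). Neither gene's groups overlapped, which held for 16.2% of all chicken probe sets. The autosomal assembly factor of the same kinase, MNAT1, gave -0.15 (SE 0.09, limma adjusted p = 0.610). KARS, the lysyl-tRNA synthetase, gave -0.04 (SE 0.07), RUVBL1, an ATPase of chromatin complexes, -0.28 (SE 0.17), and MITF, a transcription factor of pigment cells, -0.11 (SE 0.07). The dimmer probe sets of MITF went the other way, at 0.05 to 0.24. The signalling partners RGS17, GRIN1 and OPRM1 gave 0.39 (SE 0.23), 0.28 (SE 0.16) and 0.18 (SE 0.15), with 0.06 and -0.13 in the dimmer probe sets of RGS17. SH3RF1 gave 0.06 (SE 0.10), and -0.08 in its dimmer probe set. None of these passed.

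**Figure D5:**
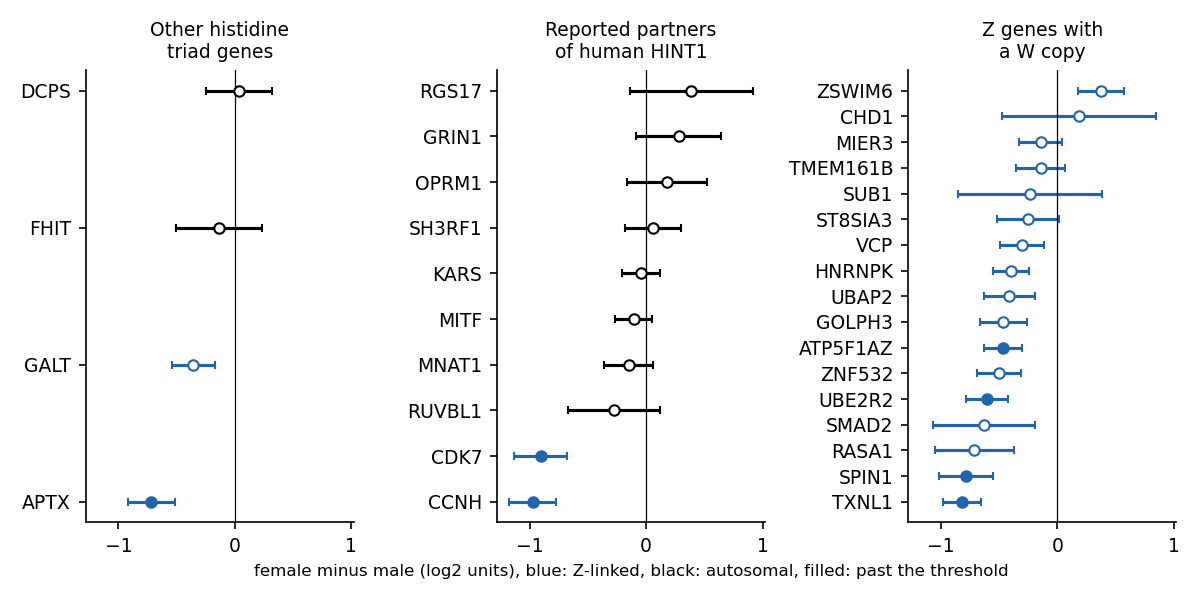
Female minus male difference in log2 units with 95% intervals (x axes) for other histidine triad genes, reported partners of human HINT1 and Z genes with a W copy (y axes), Z-linked in blue, autosomal in black, filled where past the threshold. The filled points, from APTX at -0.72 to CCNH at -0.97 in the first 2 panels, are all Z-linked.

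HINT2 was also set beside other Z genes that keep a copy on the W. Of 17 such genes on the array, 15 had a difference below 0 by the brightest probe set, 4 fell and none rose in females, and their median was -0.41 log2 units. Of all genes 0.923% passed by the brightest probe set, and of Z-linked probe sets, dim ones included, 11.5% passed as lower in females. Over all 605 Z genes 483 were below 0 and the median was -0.18. Over the 377 Z genes at the median signal or brighter, 323 were below 0 and the median was -0.36. The list was not filtered by signal, and 13 of its 17 genes lay above the median signal. Its median was thus near that of the brighter Z genes and more negative than that of all Z genes. This list was written with results of these data known and is no independent evidence. The 4 that fell by the brightest probe set were TXNL1, SPIN1, a chromatin reader, at -0.78 (SE 0.10), UBE2R2, the Z relative of UBE2R2L, at -0.60 (SE 0.08), and ATP5F1AZ, an ATP synthase subunit, at -0.47 (SE 0.07). RASA1 did not pass by its brightest probe set, at -0.71 (SE 0.15, limma adjusted p = 0.131). A dimmer RASA1 probe set did, at -0.90 (SE 0.10, limma adjusted p = 0.009995). The W partners of SPIN1 and UBE2R2 were read by probe sets of their own, as HINTW was, and each passed in the other direction, with SPIN1L at 4.57 and UBE2R2L at 5.86 and 4.28. HNRNPK at -0.40 and UBAP2 at -0.41 did not pass, while probe sets of the W genes HNRNPKL and UBAP2L2 did, at up to 4.73 and 1.56. Other probe sets of HNRNPKL and UBAP2L2 did not pass.

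Marker lists of several cell types had differences in the same pools. For comparison, 19973 of all 37693 chicken probe sets had a difference below 0, and 0.923% of all genes passed by the brightest probe set. Of 10 neuron markers 8 had a difference above 0, with none past the threshold, and their mean level was 9.56 to 9.81 log2 units in female pools and 9.38 to 9.56 in male pools. Of 9 progenitor markers 8 had a difference above 0, and NES, a progenitor filament, rose by 0.55 (SE 0.08, limma adjusted p = 0.0380), while their mean level was 9.60 to 9.66 in female pools and 9.42 to 9.46 in male pools. Of 5 red blood cell markers 4 had a difference below 0, with none past the threshold, and their mean level was 10.25 to 10.82 in female pools and 10.55 to 10.99 in male pools. The largest was that of HBZ, an embryonic globin, with 11.80, 10.88 and 11.00 in female pools, and 12.06, 11.96 and 12.47 in male pools, a difference of -0.94 (SE 0.25, limma adjusted p = 0.251). The HBZ groups did not overlap, as in 16.2% of all chicken probe sets. Of 6 muscle markers 5 had a difference below 0, with none past the threshold. Their mean level was low, at 4.28 to 4.36 in female pools and 4.41 to 4.46 in male pools. The endothelium, pigment and eye, and myeloid lists had medians of -0.01, 0.01 and -0.03 log2 units, with none past the threshold. The part of these marker differences in the values of HINT2 and HINTW was not tested.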

How the data were processed

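The authors deposited 1 log2 signal for each probe set on each array. Per the submitters' processing notes it was made with RMA in affy (versions not given in the sources used here). That method subtracts background, gives arrays the same distribution and summarises probes, so there is no detection call, and levels were compared between the sexes within a probe set, with the viral probe sets as background. Labelling started from oligo(dT), per the labels' protocols, which favours the 3' ends of transcripts.

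Of 38535 probe sets, 153 control and 689 viral or other non-chicken ones were set aside, and 37693 were tested without a filter with lmFit and eBayes of limma 3.58.1 in R 4.3.3, as female minus male, two-sided, with Benjamini-Hochberg adjustment and a threshold of 0.05. Sex was the only term. The limma p-values set the sex difference against the spread between pools, with the variance of each probe set drawn toward a common value. The procedure was tested on simulated data. Exact permutation tests used scipy 1.17.1. In the platform annotation 27166 chicken probe sets have 1 gene symbol, and gene identifiers were matched to RefSeq (GRCg7b) for chromosome and gene order. The array names no build, so no coordinates are given, and no sequences are shown. Genes with several probe sets were represented by the brightest, and a listed gene was matched by symbol or RefSeq synonym, except ALAS2, whose match ALAS1 is not specific to red blood cells.

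The members and lists were chosen with earlier results of these data known. The named genes were all members, the histidine triad list, list members past the threshold, W genes by their male signals, and for each member that passed the 3 nearest patterns. The Z neighbours, the remaining partners of HINT1 and the markers were named after their values were seen. Alternatives were other eBayes settings, array weights, the pool number as a block, 2 rescalings, a filter on dim probe sets, the inclusion of controls, and leaving out each pool. The number of arrays limits the precision.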

Additional observations from a re-analysis of the deposited data

How the results depend on the processing

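Both HINTW probe sets and HINT2 kept their direction and stayed past the threshold in all 13 alternatives, so the count of HINT probe sets that passed was 3 in each. The brighter HINTW probe set ranged from 7.63 to 8.30 log2 units (limma adjusted p 3.95e-05 to 0.00124), the dimmer one from 2.08 to 2.42 (0.000502 to 0.0175) and HINT2 from -0.82 to -0.78 (0.000180 to 0.0241), where the bounds of the differences, though not all of those of p, came from leaving out pools. HINT3 changed sign around 0 without passing: -0.0016 with array weights, and leaving out female pool 1, female pool 2 or male pool 3 gave -0.0069, -0.017 and -0.041, while leaving out male pool 1 gave 0.067. The count over all chicken probe sets, 209 in all pools, was 113 to 161 when 1 pool was left out: leaving out female pool 2 gave 113, female pool 3 gave 129 and male pool 1 gave 130, with fewer arrays in each. It was 245 with the replicate block and 261 with eBayes set to trend and robust, the most in any alternative. HINT2 minus HINT3 ranged from -0.87 to -0.76 without 1 pool. It was computed only for settings that change the values, and settings of the limma fit do not apply to it. Pools share replicate numbers between the sexes, and the deviations of same-numbered pools correlated at 0.01, 0.15 and 0.32. Female pools 2 and 3 each correlated best with the male pool of their own number, while female pool 1 correlated best with male pool 2 (0.11). The numbers were not taken as pairs in the main fit, and whether they mark pairs is not settled by these values. With the replicate number as a block, the differences stayed as they were, with limma adjusted p of 0.000137 and 0.00564 for HINTW and 0.0143 for HINT2. Paired in this way, HINT2 minus HINT3 was -0.82 with an exact p of 0.25, the smallest that 3 pairs allow.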
